A study of Caenorhabditis elegans with 18 samples.

Results

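Transthyretin-related genes are one of the large gene families of nematodes. They encode small proteins, most of them with a signal for secretion, whose fold resembles that of vertebrate transthyretin, a carrier of thyroid hormone in blood. Most of the worm proteins have no assigned function. Among the exceptions, TTR-52 links phosphatidylserine exposed on dying cells to the engulfment receptor CED-1. TTR-11 acts in the regrowth of cut axons, and TTR-33 protects dopamine neurons against oxidative damage. The genes described here are those whose symbol is ttr- followed by a number in the RefSeq WBcel235 annotation, with 1 transcript standing for each gene, the one with most counts on average, and with a mean of at least 10 counts per library. Of 59 such genes in the annotation, 54 had a row in the deposited table and 51 reached that mean, among 13725 genes that reached it in the whole series.

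The study examined how the transcription factors PQM-1 and DAF-16, regulators of metabolism and stress resistance that act downstream of insulin signalling, shape resilience to stress in Caenorhabditis elegans. Day 1 adults of 3 strains were used: RB711, which carries the null allele pqm-1 (ok485), CF1038, which carries daf-16 (mu86), and N2 Bristol, the control. Each strain was sampled either after 1 h at 35 °C in a water bath and 2 h of recovery at 20 °C, called heated below, or at 20 °C throughout, and all groups were synchronised and fed the bacterial strain OP50-1. Total RNA of whole worms was sequenced, so fewer cells of a type and less RNA per cell cannot be told apart in any value below.

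Each group is represented here by its libraries named replicate 2 and replicate 3, 12 libraries in all, with 18650314 to 33399358 counts assigned to genes. The column named as replicate 1 of daf-16 at 20 °C holds feature lengths, and the column names may therefore stand 1 place away from their libraries, which would put the last library of each group under the name of the next group's replicate 1. The libraries named N2 and pqm-1 replicate 1 at 20 °C held 207 and 324 CPM (counts scaled to the size of the library) of the heat shock gene hsp-16.2, whose level was at most 0.425 CPM in the 20 °C libraries used here. The libraries named heated pqm-1, daf-16 and N2 replicate 1 held 0.0387, 0.273 and 0.400 CPM, where the heated libraries used held at least 257 CPM. Replicate 1 therefore enters no comparison below. With all 17 count columns under their given names, edgeR called 0 of the 51 genes and 0% of all genes in any heat comparison. Of the 51, 3 to 5 had an unadjusted p under 0.05. The 4 heat shock markers were hsp-16.2, hsp-16.41, hsp-70 and F44E5.4. In the 12 libraries used they summed to 545 to 2675 CPM in heated worms and 8.72 to 16.35 CPM at 20 °C. Their levels differed within heated groups, given here as replicate 2 and replicate 3. hsp-16.2 stood at 462 and 257 CPM in heated N2, 387 and 415 CPM in heated pqm-1, and 577 and 327 CPM in heated daf-16. F44E5.4 stood at 269 and 67.4, 305 and 270, and 1404 and 281 CPM in the same order. Of the heated libraries, N2 replicate 3 was lowest and daf-16 replicate 2 highest for each marker. At 20 °C pqm-1 itself stood at 12.6 and 9.92 CPM in the pqm-1 strain and 26.1 and 24.1 CPM in N2, while daf-16 stood at 115 and 97.7 CPM in the daf-16 strain and 105 and 88.0 CPM in N2. After heat daf-16 stood at 90.0 and 97.5 CPM in the daf-16 strain and 102 and 112 CPM in N2. By edgeR the adjusted p of daf-16 between these strains was 0.509 at 20 °C and 0.377 after heat. A loss of daf-16 is thus not seen in these counts. Where reads fell within the gene was not examined, so the mutation of the strain is not checked here.

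Levels are given as CPM scaled by edgeR's TMM factors, and as CPM per kilobase (kb) of deposited length where genes are compared with each other. Differences are log2 fold changes ± SE from edgeR's quasi-likelihood test. A gene is called when its p, adjusted by the Benjamini-Hochberg method over all 14278 genes tested, is under 0.05. The labels say that the replicates are biological. With 2 libraries a group, the p-values rest on the spread within all 6 groups, in part shared over genes, and not on the compared groups alone.

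All 51 transthyretin-related genes passed the filter on low counts and were tested. The genes just above the limit were ttr-58, with a mean of 10.7 counts, and ttr-22, with 11.0. Just below it were ttr-55, with 8.67 counts, and ttr-57, with 3.92, while ttr-19 had 0 counts in all 12 libraries. The phosphatidylserine-binding gene ttr-52 was not analysed here, nor were ttr-16, ttr-47, ttr-54 and the pseudogene ttr-4. The 51 genes are short, with deposited lengths of 333 to 1221 bases and a median of 432, and for 49 of them this length equals the annotated coding length. None had the same counts as another gene, but 16 had counts that are not whole numbers in at least 1 library, and 13 share exon bases with another protein-coding gene. No source used here states whether counting used strand, so reads of such overlapping genes may not be separated.

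Family levels were spread over a wide range, and a few genes carried most of the signal. The highest, ttr-15, had 932 CPM per kb, which was 849 times that of the lowest, ttr-22, at 1.10 CPM per kb. After ttr-15 came ttr-2 at 424, ttr-51 at 360.3, ttr-18 at 292 and ttr-46 at 259 CPM per kb. The ranges of ttr-15 and ttr-2 over the 12 libraries did not overlap, whereas each of the other 49 pairs of neighbours in this order had overlapping ranges. In CPM not divided by length, 7 genes averaged over 100, 20 lay between 10 and 100, 20 between 1 and 10, and 4 under 1. The top 5 genes by CPM held 49.9% of the family's summed CPM and the top 10 held 71.9%. ttr-15 alone held 17.1%.

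**Figure D1:**
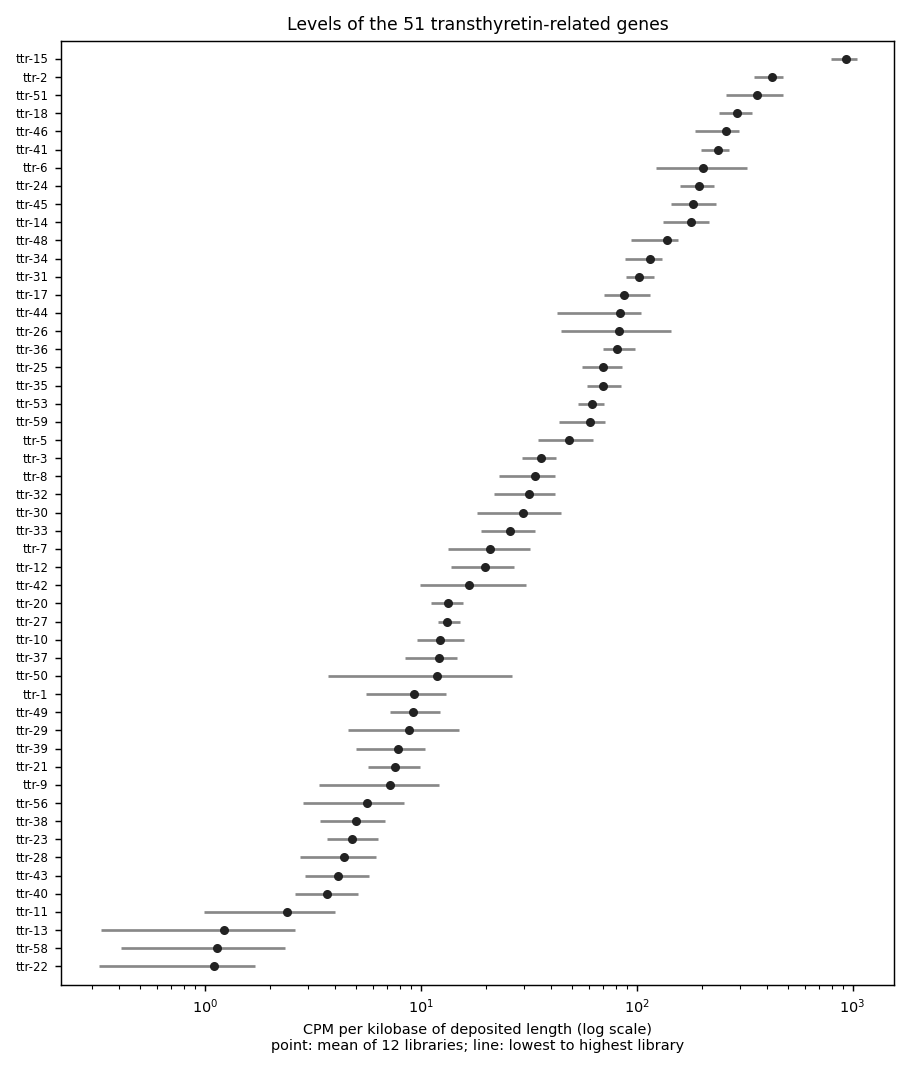
Level of each of the 51 transthyretin-related genes in CPM per kb of deposited length, on a log axis, ordered by level; points are means over 12 libraries and lines run from the lowest to the highest library. ttr-15, at 932 CPM per kb, stands above ttr-2 with no overlap, and the rest form a continuous slope down to ttr-22.

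Summed over the 51 genes, the family reached 2341 ± 60.4 CPM in heated pqm-1 worms and 1974 ± 17.0 CPM in pqm-1 worms at 20 °C (SD, n = 2 each). In daf-16 the sum was 2078 ± 141 CPM after heat and 1974 ± 99.9 CPM at 20 °C, and in N2 it was 2338 ± 60.0 CPM after heat and 2110 ± 48.9 CPM at 20 °C (SD, n = 2 each). The heated sums lay above the 20 °C sums in pqm-1 and N2 without overlap, and the daf-16 sums overlapped. The most abundant gene, ttr-15, was called in 1 strain. ttr-15 had 371 and 399 CPM in heated pqm-1 worms, against 325 and 318 CPM in pqm-1 worms at 20 °C. In daf-16, ttr-15 had 410.1 and 358 CPM after heat, against 313 and 341 CPM at 20 °C, and in N2 it had 390.2 and 409 CPM after heat, against 379 and 379 CPM at 20 °C. In every strain the heated libraries stood above those at 20 °C. For ttr-15, edgeR gave a log2 fold change with heat of 0.26 ± 0.08 in pqm-1 (adjusted p = 0.0379), 0.23 ± 0.08 in daf-16 (adjusted p = 0.0501) and 0.08 ± 0.08 in N2 (adjusted p = 0.507). Only the pqm-1 value was called, and that call was lost without either 20 °C N2 library, either 20 °C pqm-1 library or either heated pqm-1 library (adjusted p = 0.0511 to 0.230). The level of ttr-2 in pqm-1 was 193 and 204 CPM after heat, against 169.8 and 174 CPM at 20 °C, and in daf-16 it was 196 and 187 CPM after heat, against 156 and 174 CPM at 20 °C. In heated N2, ttr-2 was at 206 and 213 CPM, against 201 and 202 CPM in N2 at 20 °C. Here too the heated libraries of each strain were above those at 20 °C. In daf-16 alone ttr-2 was called, at 0.22 ± 0.08 (adjusted p = 0.0478 by edgeR), and this call was lost without 20 °C daf-16 replicate 2, either heated daf-16 library, either 20 °C N2 library, either heated N2 library, either 20 °C pqm-1 library or either heated pqm-1 library (adjusted p = 0.0537 to 0.311). In pqm-1 and N2 the log2 fold changes of ttr-2 were 0.21 and 0.06, neither of them called.

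Heat raised some genes of the family and lowered others. In pqm-1 worms edgeR called 20 of 51, 17 higher and 3 lower (39.2%), where it called 25.2% of all genes tested. In daf-16 worms 24 were called, 16 higher and 8 lower (47.1%), beside 33.1% of all genes. In N2, 22 were called, 14 higher and 8 lower (43.1%), beside 34.7% of all genes. Among all genes 12.5% were called higher and 12.6% lower in pqm-1, 16.5% in each direction in daf-16, and 16.8% higher and 17.9% lower in N2. When libraries were scaled by total counts alone, the N2 split of the family was 18 higher and 6 lower, beside 22.4% higher and 13.8% lower among all genes, and all genes split into 16.1% higher and 10.2% lower in pqm-1. The median log2 fold change of the family was 0.20 in pqm-1, 0.07 in daf-16 and 0.16 in N2, beside 0.01, 0.03 and 0.02 for all genes. Single libraries moved these medians. In daf-16 the median was -0.0074 without heated daf-16 replicate 2 and 0.21 without heated daf-16 replicate 3. In N2 it was 0.06 without 20 °C N2 replicate 2. Fewer genes of the family were called in pqm-1 without heated pqm-1 replicate 3, and in daf-16 without 20 °C daf-16 replicate 2. Both fits leave a group with a single library, and fewer of all genes were called in them as well. The family medians in these fits were 0.17 in pqm-1 and 0.09 in daf-16.

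In at least 1 strain, 35 of the 51 genes (68.6%) were called, against 49.0% of all genes tested, and no gene was called in opposite directions in different strains. The genes higher after heat in all 3 strains were ttr-5, ttr-6, ttr-7, ttr-18, ttr-25, ttr-26, ttr-29, ttr-30, ttr-39 and ttr-51. These 10 genes are 19.6% of the family, beside 7.84% of all genes called higher in every strain. Only ttr-56 was called lower in all 3 strains, which is 1.96% of the family beside 8.76% of all genes. Of these 11 genes, 4 (ttr-6, ttr-7, ttr-30 and ttr-39) stayed called in every strain whichever of the 12 libraries was left out.

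**Figure D2:**
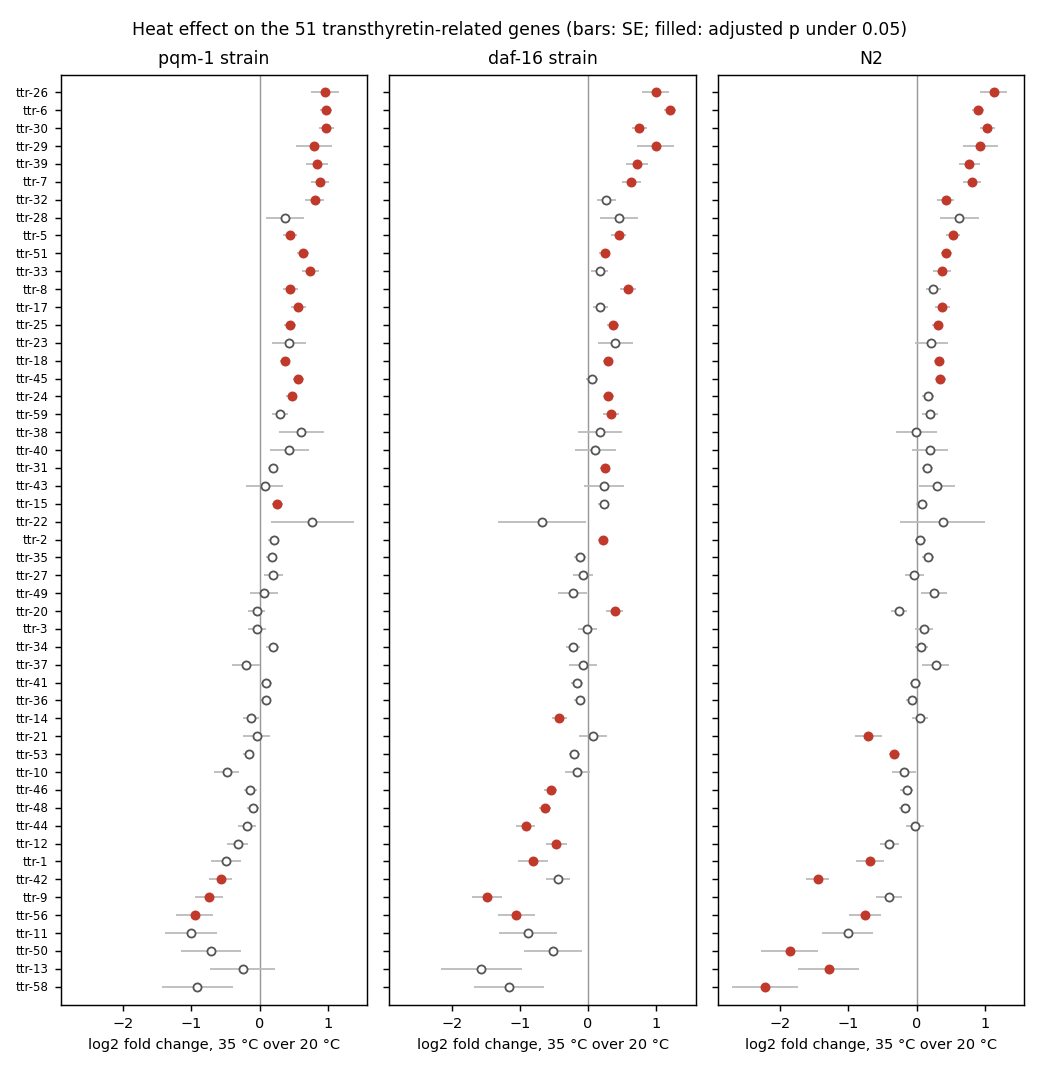
Log2 fold change with heat of the 51 transthyretin-related genes in pqm-1, daf-16 and N2 worms, 1 panel a strain; points are edgeR estimates, bars are SE, and filled points have an adjusted p under 0.05. Filled points lie on both sides of 0 in each strain, with ttr-6, ttr-26 and ttr-30 among the highest in every panel.

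The gene with the largest rise in daf-16 and the smallest adjusted p in every strain was ttr-6. ttr-6 had 109 and 115 CPM in heated pqm-1 worms, against 58.5 and 55.4 CPM in pqm-1 worms at 20 °C. In daf-16, ttr-6 had 138 and 116 CPM after heat, against 52.6 and 57.4 CPM at 20 °C, and in N2 it had 115 and 107 CPM after heat, against 59.0 and 59.8 CPM at 20 °C. Every heated library stood above every 20 °C library, whatever the strain. Its heat effect, as a log2 fold change from edgeR, was 0.97 ± 0.09 in pqm-1 (adjusted p = 2.23e-05), 1.20 ± 0.09 in daf-16 (adjusted p = 3.83e-06) and 0.90 ± 0.09 in N2 (adjusted p = 3.22e-05). These are folds of 1.97, 2.30 and 1.86, for a gene whose mean level over the 12 libraries was 204 CPM per kb. Heated pqm-1 worms had 17.0 and 19.2 CPM of ttr-30, against 9.29 and 9.07 CPM at 20 °C, and heated daf-16 worms had 16.6 and 14.6 CPM, against 9.88 and 8.59 CPM at 20 °C. For N2, ttr-30 was at 16.8 and 16.40 CPM after heat, against 7.88 and 8.22 CPM at 20 °C. Again every heated library stood above every 20 °C library. For ttr-30, edgeR gave a log2 fold change with heat of 0.98 ± 0.11 in pqm-1 (adjusted p = 7.83e-05), 0.75 ± 0.11 in daf-16 (adjusted p = 3.82e-04) and 1.04 ± 0.11 in N2 (adjusted p = 4.67e-05). Its neighbour on the chromosome, ttr-59, had smaller values of 0.30 in pqm-1, 0.33 in daf-16 and 0.19 in N2, and was called in daf-16 only (adjusted p = 0.0473 by edgeR). This call was kept in only 2 of the 12 fits that left out 1 library (adjusted p = 0.0572 to 0.339 in the others), and DESeq2 did not make it (adjusted p = 0.0975).

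ttr-24, ttr-25 and ttr-26 lie next to each other in the genome and had positive heat effects of different size. The level of ttr-26 in pqm-1 was 40.4 and 54.5 CPM after heat, against 24.9 and 23.8 CPM at 20 °C, and in daf-16 it was 62.8 and 39.1 CPM after heat, against 25.7 and 25.4 CPM at 20 °C. In heated N2, ttr-26 was at 51.4 and 40.6 CPM, against 22.5 and 19.4 CPM in N2 at 20 °C. In each strain both heated libraries were above both 20 °C libraries. By edgeR, the log2 fold change of ttr-26 with heat was 0.96 ± 0.20 in pqm-1 (adjusted p = 0.00447), 0.99 ± 0.20 in daf-16 (adjusted p = 0.00279) and 1.13 ± 0.20 in N2 (adjusted p = 0.00134). The pqm-1 call was lost without heated pqm-1 replicate 3 (adjusted p = 0.0535). For ttr-25 the log2 fold changes were 0.45 ± 0.08 in pqm-1, 0.36 ± 0.08 in daf-16 and 0.31 ± 0.08 in N2, all called and all under those of ttr-26. ttr-24, the most abundant of the 3 at 194 CPM per kb, had 0.47 ± 0.09 in pqm-1, 0.30 ± 0.09 in daf-16 and 0.17 ± 0.08 in N2, the last of these not called.

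A second run of neighbours is ttr-27, ttr-28 and ttr-29, all of low abundance at 13.2, 4.40 and 8.80 CPM per kb. ttr-29 had 4.31 and 5.37 CPM in heated pqm-1 worms, against 2.70 and 2.85 CPM in pqm-1 worms at 20 °C. In daf-16, ttr-29 had 6.80 and 4.24 CPM after heat, against 2.08 and 3.43 CPM at 20 °C, and in N2 it had 5.88 and 4.71 CPM after heat, against 2.59 and 2.88 CPM at 20 °C. In each strain both heated libraries were above both at 20 °C. For ttr-29, edgeR gave a log2 fold change with heat of 0.80 ± 0.27 in pqm-1 (adjusted p = 0.0475), 0.99 ± 0.27 in daf-16 (adjusted p = 0.0136) and 0.94 ± 0.26 in N2 (adjusted p = 0.0149). None of these calls was kept in every fit that left out 1 library. Over the 12 fits the log2 fold change was 0.63 to 0.95 in pqm-1, 0.62 to 1.39 in daf-16 and 0.79 to 1.10 in N2. The pqm-1 call was lost without either 20 °C N2 library, either 20 °C pqm-1 library or either heated pqm-1 library (adjusted p = 0.0551 to 0.229). In daf-16 it was lost without 20 °C daf-16 replicate 2 or heated daf-16 replicate 2 (adjusted p = 0.124 to 0.128), and in N2 without either 20 °C N2 library or heated N2 replicate 2 (adjusted p = 0.0519 to 0.0825). The middle gene ttr-28 had positive values of 0.37 in pqm-1, 0.46 in daf-16 and 0.63 in N2 that were not called, and ttr-27 had 0.20, -0.08 and -0.03 in the same order. Over the family, 12 pairs of genes are direct neighbours, and both had the same sign of heat effect in 10 pairs in pqm-1, 8 in daf-16 and 9 in N2. Of the 51 genes, 62.7%, 52.9% and 60.8% had a positive value in these strains. ttr-2, ttr-25 and ttr-28 each belong to more than 1 pair, and neighbours were not compared with other pairs.

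Among the abundant genes, ttr-18 and ttr-51 rose in all 3 strains by less. The level of ttr-18 in pqm-1 was 144 and 139 CPM after heat, against 109 and 110.0 CPM at 20 °C, and in daf-16 it was 142 and 139.8 CPM after heat, against 115 and 114 CPM at 20 °C. In heated N2, ttr-18 was at 121 and 135 CPM, against 101 and 103 CPM in N2 at 20 °C. In each strain both heated libraries were above both at 20 °C. Its heat effect, as a log2 fold change from edgeR, was 0.37 ± 0.07 in pqm-1 (adjusted p = 0.00311), 0.30 ± 0.07 in daf-16 (adjusted p = 0.00910) and 0.33 ± 0.07 in N2 (adjusted p = 0.00511). The daf-16 call was lost without 20 °C daf-16 replicate 3 (adjusted p = 0.0585). Heated pqm-1 worms had 183 and 199.5 CPM of ttr-51, against 119.7 and 126 CPM at 20 °C, and heated daf-16 worms had 138 and 135 CPM, against 108 and 122.2 CPM at 20 °C. For N2, ttr-51 was at 196 and 189.5 CPM after heat, against 138 and 147 CPM at 20 °C. In each strain both heated libraries were above both at 20 °C. By edgeR, the log2 fold change of ttr-51 with heat was 0.64 ± 0.08 in pqm-1 (adjusted p = 1.84e-04), 0.24 ± 0.08 in daf-16 (adjusted p = 0.0399) and 0.43 ± 0.08 in N2 (adjusted p = 0.00185). In daf-16 the call was lost without 20 °C daf-16 replicate 2, either heated daf-16 library, heated N2 replicate 2, either 20 °C pqm-1 library or either heated pqm-1 library (adjusted p = 0.0509 to 0.277), and also with DESeq2 (adjusted p = 0.0799), with relative log expression factors (adjusted p = 0.0574), with only the daf-16 libraries in the fit (adjusted p = 0.134) and without a filter on low counts (adjusted p = 0.117). Another coding gene, JC8.7, shares 9.36% of the exon bases of ttr-51 on the opposite strand, and its own heat values were 0.14 in pqm-1, 0.04 in daf-16 and 0.02 in N2, none of them called.

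The remaining genes called higher in all 3 strains were ttr-5, ttr-7 and ttr-39, which together with ttr-25 complete the 10. ttr-5 had log2 fold changes of 0.45 ± 0.11 in pqm-1, 0.45 ± 0.11 in daf-16 and 0.54 ± 0.10 in N2. Larger values were found for ttr-7, with 0.88 ± 0.13 in pqm-1, 0.63 ± 0.14 in daf-16 and 0.81 ± 0.13 in N2. For ttr-39 they were 0.84 ± 0.16, 0.72 ± 0.16 and 0.78 ± 0.16 in the same strains. The gene ndc-80, which shares 10.4% of the exon bases of ttr-39 on the opposite strand, was called lower after heat in N2 at -0.36, the other direction. Of these 4 genes, ttr-7 and ttr-39 were called without each of the 12 libraries in turn, whereas ttr-5 lost its call in pqm-1 without either 20 °C pqm-1 library or heated pqm-1 replicate 3 (adjusted p = 0.0527 to 0.0600) and in daf-16 without 20 °C daf-16 replicate 2 or heated daf-16 replicate 2 (adjusted p = 0.0650 to 0.0711). ttr-25 lost its call in daf-16 without 20 °C daf-16 replicate 2 (adjusted p = 0.0582) and in N2 without 20 °C N2 replicate 2 or heated N2 replicate 3 (adjusted p = 0.0518 to 0.0663).

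**Figure D3:**
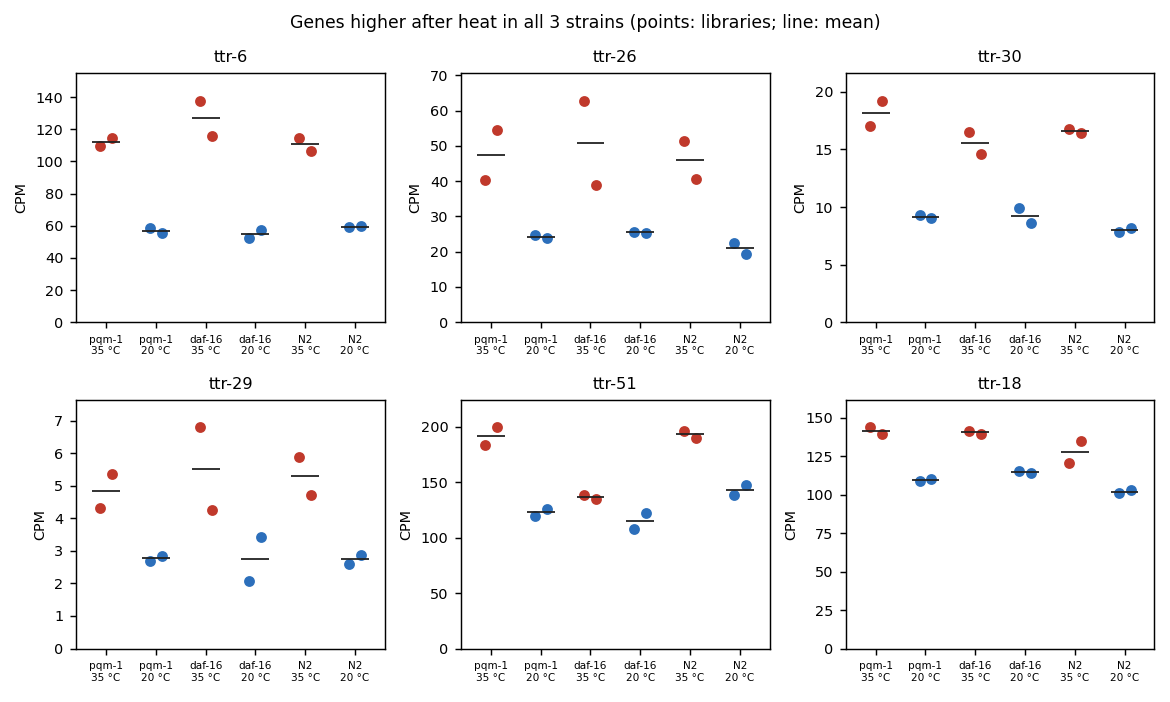
CPM of 6 genes called higher after heat in all 3 strains, with 1 panel a gene; points are the 2 libraries of each group and the short line is their mean, on axes that start at 0. In the ttr-6 and ttr-30 panels every heated point lies above every 20 °C point.

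Genes called in some strains and not in others made up the rest of the rises. ttr-17, ttr-32, ttr-33 and ttr-45 were called in pqm-1 and N2. ttr-33, the gene known for protecting dopamine neurons, stood at 25.9 CPM per kb. Heated pqm-1 worms had 14.4 and 14.6 CPM of ttr-33, against 9.10 and 8.23 CPM at 20 °C, and heated daf-16 worms had 12.4 and 10.295 CPM, against 10.304 and 9.80 CPM at 20 °C. For N2, ttr-33 was at 12.9 and 12.7 CPM after heat, against 8.77 and 10.8 CPM at 20 °C. The heated libraries were above those at 20 °C in pqm-1 and N2 and overlapped them in daf-16. For ttr-33, edgeR gave a log2 fold change with heat of 0.74 ± 0.13 in pqm-1 (adjusted p = 0.00124), 0.17 ± 0.13 in daf-16 (adjusted p = 0.347) and 0.37 ± 0.13 in N2 (adjusted p = 0.0371). In N2 the call was lost without 20 °C N2 replicate 2, either heated N2 library or either heated pqm-1 library (adjusted p = 0.0539 to 0.232) and with DESeq2 (adjusted p = 0.0923). txt-5, which shares 7.14% of the exon bases of ttr-33 on the same strand, averaged 4.22 CPM and was not called with heat in any strain. mig-6, which lies across ttr-33 on the opposite strand and shares 0 exon bases with it, averaged 929 CPM and was called higher with heat in N2, at 0.55 (adjusted p = 0.00840 by edgeR). ttr-45 had 94.4 and 99.0 CPM in heated pqm-1 worms, against 61.1 and 69.4 CPM in pqm-1 worms at 20 °C. In daf-16, ttr-45 had 67.4 and 65.3 CPM after heat, against 60.9 and 66.6 CPM at 20 °C, and in N2 it had 96.3 and 96.5 CPM after heat, against 76.9 and 74.5 CPM at 20 °C. As for ttr-33, the heated libraries stood higher in pqm-1 and N2 and overlapped those at 20 °C in daf-16. By edgeR, the log2 fold change of ttr-45 with heat was 0.57 ± 0.08 in pqm-1 (adjusted p = 3.52e-04), 0.06 ± 0.08 in daf-16 (adjusted p = 0.624) and 0.35 ± 0.08 in N2 (adjusted p = 0.00582). ttr-8 and ttr-24 were called in pqm-1 and daf-16, ttr-15 in pqm-1 alone, and ttr-2, ttr-20, ttr-31 and ttr-59 in daf-16 alone, with log2 fold changes of 0.22 to 0.39 in daf-16 for these last 4.

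Falls were fewer, and several were in genes of low abundance. In N2, the largest called falls were those of ttr-58, ttr-50 and ttr-42. The level of ttr-42 in pqm-1 was 4.53 and 5.67 CPM after heat, against 7.82 and 7.30 CPM at 20 °C, and in daf-16 it was 4.17 and 5.87 CPM after heat, against 6.14 and 7.58 CPM at 20 °C. In heated N2, ttr-42 was at 4.59 and 4.80 CPM, against 12.8 and 12.9 CPM in N2 at 20 °C. N2 worms at 20 °C stood above all other groups, and heated worms of the 3 strains overlapped. By edgeR, the log2 fold change of ttr-42 with heat was -0.57 ± 0.17 in pqm-1 (adjusted p = 0.0305), -0.44 ± 0.18 in daf-16 (adjusted p = 0.0781) and -1.45 ± 0.16 in N2 (adjusted p = 5.85e-05). The pqm-1 call was lost without either 20 °C pqm-1 library or heated pqm-1 replicate 2 (adjusted p = 0.0850 to 0.234), and also when libraries were scaled by total counts alone (adjusted p = 0.0514). H01M10.1 shares 10.9% of the exon bases of ttr-42 on the opposite strand and averaged 2.06 CPM. ttr-50 had 3.89 and 6.46 CPM in heated pqm-1 worms, against 7.30 and 9.49 CPM in pqm-1 worms at 20 °C. In daf-16, ttr-50 had 3.29 and 9.39 CPM after heat, against 9.36 and 9.13 CPM at 20 °C, and in N2 it had 2.38 and 4.62 CPM after heat, against 17.0 and 9.43 CPM at 20 °C. The highest N2 library at 20 °C was far from the other, and heated N2 lay below both. For ttr-50, edgeR gave a log2 fold change with heat of -0.71 ± 0.44 in pqm-1 (adjusted p = 0.266), -0.51 ± 0.42 in daf-16 (adjusted p = 0.381) and -1.86 ± 0.42 in N2 (adjusted p = 0.00532), so only the N2 fall was called. The gene rbm-17, a splicing factor that averaged 29.5 CPM and shares 5.58% of the exon bases of ttr-50, had a value of -0.12 in N2 and was not called.

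ttr-58 and ttr-56 are neighbours. Heated pqm-1 worms had 0.384 and 0.197 CPM of ttr-58, against 0.426 and 0.702 CPM at 20 °C, and heated daf-16 worms had 0.219 and 0.361 CPM, against 0.425 and 0.917 CPM at 20 °C. For N2, ttr-58 was at 0.209 and 0.175 CPM after heat, against 0.798 and 1.00 CPM at 20 °C. In each strain both heated libraries were below both at 20 °C. Behind these levels were 5 and 6 counts in heated N2, against 16 and 24 in N2 at 20 °C, and 4 to 19 in the other groups. The mean count of ttr-58, 10.7, was just above the limit for the family, and without the 20 °C N2 libraries it was below. ttr-58 was thus included through the group from which its N2 fall is measured. Its heat effect, as a log2 fold change from edgeR, was -0.92 ± 0.52 in pqm-1 (adjusted p = 0.229), -1.16 ± 0.52 in daf-16 (adjusted p = 0.105) and -2.22 ± 0.49 in N2 (adjusted p = 0.00429), and so only the N2 fall was called. The level of ttr-56 in pqm-1 was 1.28 and 0.986 CPM after heat, against 1.71 and 2.71 CPM at 20 °C, and in daf-16 it was 1.43 and 1.08 CPM after heat, against 2.41 and 2.75 CPM at 20 °C. In heated N2, ttr-56 was at 1.67 and 1.67 CPM, against 2.89 and 2.75 CPM in N2 at 20 °C. In each strain both heated libraries were below both at 20 °C. By edgeR, the log2 fold change of ttr-56 with heat was -0.95 ± 0.27 in pqm-1 (adjusted p = 0.0224), -1.05 ± 0.27 in daf-16 (adjusted p = 0.00953) and -0.76 ± 0.24 in N2 (adjusted p = 0.0263). None of these calls was kept in every fit that left out 1 library. Over the 12 fits the log2 fold change was -1.25 to -0.58 in pqm-1, -1.25 to -0.86 in daf-16 and -0.79 to -0.71 in N2. The N2 call was lost without either 20 °C N2 library or either heated N2 library (adjusted p = 0.0756 to 0.0992), the daf-16 call without 20 °C daf-16 replicate 3 or heated daf-16 replicate 3 (adjusted p = 0.0628 to 0.0727) and the pqm-1 call without 20 °C pqm-1 replicate 3 or either heated pqm-1 library (adjusted p = 0.0544 to 0.234). With DESeq2 the adjusted p of ttr-56 was 0.0609 in pqm-1 and 0.0957 in N2.

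ttr-9 had 2.69 and 2.37 CPM in heated pqm-1 worms, against 4.12 and 4.35 CPM in pqm-1 worms at 20 °C. In daf-16, ttr-9 had 1.92 and 1.63 CPM after heat, against 5.86 and 3.96 CPM at 20 °C, and in N2 it had 3.13 and 3.19 CPM after heat, against 3.84 and 4.51 CPM at 20 °C. The heated daf-16 libraries were the lowest of the 12, and in each strain the heated libraries lay below those at 20 °C. For ttr-9, edgeR gave a log2 fold change with heat of -0.74 ± 0.21 in pqm-1 (adjusted p = 0.0213), -1.48 ± 0.22 in daf-16 (adjusted p = 3.34e-04) and -0.40 ± 0.19 in N2 (adjusted p = 0.128), the N2 value not being called. In pqm-1 the call was lost without either 20 °C pqm-1 library or either heated pqm-1 library (adjusted p = 0.0670 to 0.120) and with DESeq2 (adjusted p = 0.0506). Heated pqm-1 worms had 0.555 and 0.641 CPM of ttr-11, against 1.28 and 1.12 CPM at 20 °C, and heated daf-16 worms had 0.329 and 0.632 CPM, against 0.662 and 1.16 CPM at 20 °C. For N2, ttr-11 was at 0.459 and 0.614 CPM after heat, against 0.848 and 1.34 CPM at 20 °C. In each strain both heated libraries were below both at 20 °C. For ttr-11, edgeR gave -1.005 ± 0.39 in pqm-1, -0.88 ± 0.43 in daf-16 and -1.01 ± 0.37 in N2. The adjusted p were 0.0772, 0.138 and 0.0542 in that order, so no call was made. In N2, ttr-11 was called lower with replicate number as a block (adjusted p = 0.0353), with a mean of at least 10 counts as the filter (adjusted p = 0.04998) and without a filter (adjusted p = 0.0299), and also without either heated daf-16 library or 20 °C N2 replicate 2. In pqm-1 it was called without a filter (adjusted p = 0.0430) and with only the pqm-1 libraries in the fit (adjusted p = 0.0277). Other genes called lower in N2 were ttr-13 (-1.29), ttr-21 (-0.71), ttr-53 (-0.33) and ttr-1 (-0.69), and ttr-1 was also called in daf-16 (-0.81). Of these calls only that of ttr-53 was kept in every fit that left out 1 library. Scaling by total counts alone lost the N2 calls of ttr-13 and ttr-1, and DESeq2 lost that of ttr-13. ttr-13 rested on 14 and 10 counts in heated N2, against 26 and 19 in N2 at 20 °C. In daf-16 its value was -1.56, not called. Y44A6B.3 shares 10.5% of the exon bases of ttr-13 on the same strand and averaged 0.427 CPM.

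**Figure D4:**
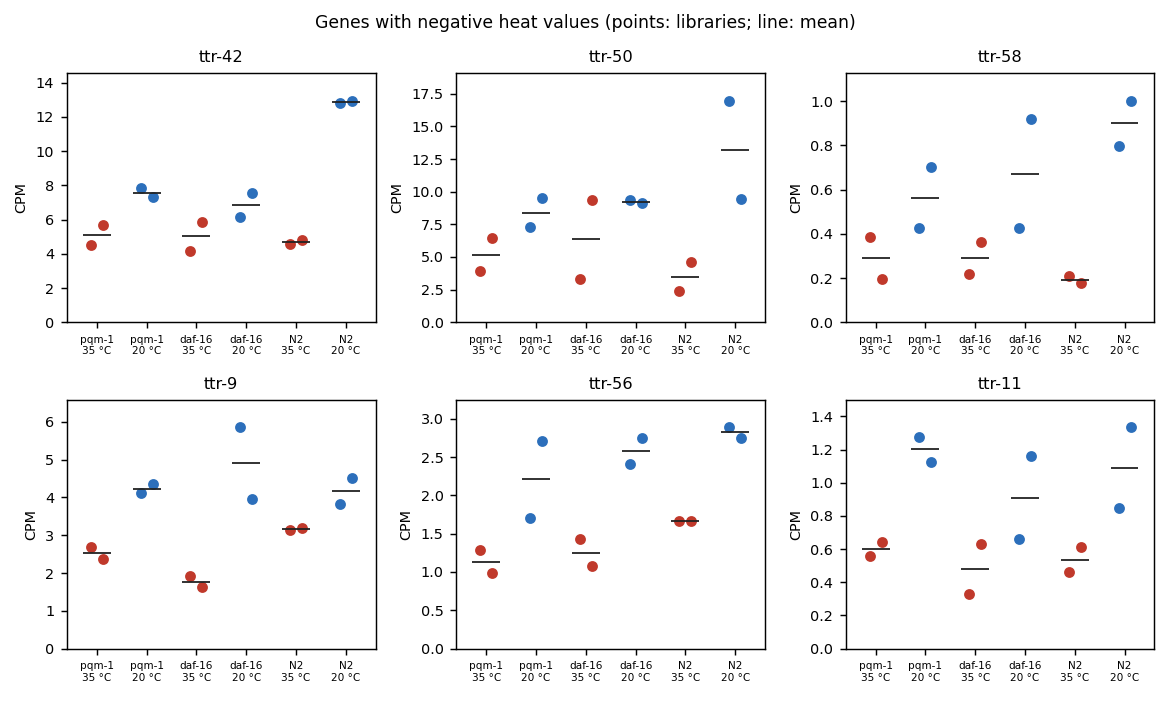
CPM of 6 genes with negative log2 fold changes with heat, with 1 panel a gene; points are the 2 libraries of each group and the short line is their mean, on axes that start at 0. The ttr-42 panel shows N2 at 20 °C, at 12.8 and 12.9 CPM, above all other groups, and the ttr-9 panel shows heated daf-16 lowest.

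Summed markers of several tissues differed with heat beside these falls. The 6 intestine markers, of which none was at 0, summed to 7473 to 9436 CPM in heated worms, against 13482 to 17436 CPM at 20 °C, and 3, 5 and 4 of the 6 were called lower in pqm-1, daf-16 and N2. The 4 oocyte markers summed to 661 to 719.9 CPM in heated pqm-1, against 1006 to 1036 CPM at 20 °C, 495 to 785 CPM in heated daf-16, against 759 to 921 CPM, and 586 to 631 CPM in heated N2, against 1078 to 1335 CPM. Of these 4, edgeR called 3 lower in pqm-1, 1 in daf-16 and 4 in N2. The 3 body wall muscle markers with a row stood the other way, with 6081 to 6943 CPM heated and 4137 to 5997 CPM at 20 °C, as did the neuron markers, with 267 to 303 and 218 to 241 CPM. edgeR called 0, 2 and 2 of the 3 muscle markers higher in pqm-1, daf-16 and N2, and 3, 3 and 2 of the 5 neuron markers. Both coelomocyte markers were called lower in every strain, and their sum was 6.70 to 7.57 CPM in heated worms and 11.0 to 13.2 CPM at 20 °C. Sperm markers summed to 72.1 to 90.9 CPM after heat and 90.9 to 107 CPM at 20 °C, with 1, 2 and 0 of 4 called lower in pqm-1, daf-16 and N2. For the germ line the sums were 1682 to 1971 and 1933 to 2136 CPM, and 2, 0 and 1 of 4 were called lower. Hypodermis markers summed to 3333 to 4037 CPM heated and 3708 to 4377 CPM at 20 °C, and of 6 none was called in pqm-1, 1 was higher in daf-16, and 3 were higher and 1 lower in N2. Pharynx markers, at 685 to 764 and 473 to 701 CPM, were not called in any strain. Of the glia markers fig-1 alone was tested, and it was called lower in pqm-1, while mir-228 was at 0. The early embryo sum, at 27.1 to 34.9 CPM after heat and 27.7 to 45.4 CPM at 20 °C, was almost all pie-1, a maternal germ line transcript called lower in N2, whereas end-1, end-3 and tbx-37 reached at most 0.327, 0.932 and 0.406 CPM in any library. The part of these shifts in the values of the transthyretin-related genes was not tested.

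Between the pqm-1 strain and N2 no gene of the family was called by edgeR. At 20 °C it called 0 of 51 genes, where it called 0.0630% of all genes tested, 0.0560% as higher and 0.00700% as lower. At an unadjusted p under 0.05 stood 9 of the 51 (17.6%), beside 9.67% of all genes. Beside 0.714% of all genes, DESeq2 called 1, ttr-42. Its log2 fold change was -0.77 ± 0.16 (adjusted p = 0.127 by edgeR and 0.0275 by DESeq2). After heat, edgeR again called 0 genes, where it called 0.280% of all genes, 0.224% as higher and 0.0560% as lower, and DESeq2 called 0. Here 3 of the 51 (5.88%) had an unadjusted p under 0.05, beside 6.46% of all genes. The median log2 difference of the family was -0.06 at 20 °C and 0.04 after heat, beside 0.00 and 0.01 for all genes. Leaving out 1 library moved it over -0.14 to -0.011 at 20 °C, the ends being those without N2 replicate 2 and without N2 replicate 3, and over -0.03 to 0.05 after heat, without heated pqm-1 replicate 3 and replicate 2. The smallest adjusted p after heat, named here after its value was seen, was that of ttr-36, at 0.37 ± 0.08 (adjusted p = 0.0972).

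At 20 °C, 1 gene was called between the daf-16 strain and N2. This was ttr-42, lower by edgeR at -0.91 ± 0.16 (adjusted p = 0.0195). Of all genes tested, 2.49% were called in this comparison, 1.68% as higher and 0.805% as lower, so 1 of 51 is near that background. The daf-16 libraries held 6.14 and 7.58 CPM, the pqm-1 libraries 7.82 and 7.30 CPM and the N2 libraries 12.8 and 12.9 CPM at 20 °C, so both mutants lay below N2 without overlap. Both comparisons use the same N2 libraries. The call was lost without 20 °C daf-16 replicate 2 or either 20 °C N2 library (adjusted p = 0.0737 to 0.264). After heat no such gap was seen, and the log2 fold change of ttr-42 was 0.11 ± 0.18. The summed oocyte markers given above were also highest in N2 at 20 °C, and 4 of the 6 hypodermis markers were called higher in daf-16 than in N2 at 20 °C. Their part was not tested.

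After heat, 4 genes (7.84%) were called lower in daf-16 worms than in heated N2 worms and none higher, where 1.09% of all genes tested were called, 0.532% as higher and 0.560% as lower. The genes were ttr-44, ttr-45, ttr-48 and ttr-51. The level of ttr-44 in pqm-1 was 41.1 and 37.9 CPM after heat, against 44.2 and 45.6 CPM at 20 °C, and in daf-16 it was 20.2 and 25.2 CPM after heat, against 42.5 and 43.6 CPM at 20 °C. In heated N2, ttr-44 was at 36.4 and 49.1 CPM, against 41.4 and 45.6 CPM in N2 at 20 °C. The heated daf-16 libraries lay below all others, which spread over 36.4 to 49.1 CPM. edgeR gave ttr-44 a difference of -0.91 ± 0.14 (adjusted p = 0.00971) between heated daf-16 and heated N2, and -0.02 ± 0.13 (adjusted p = 0.968) between the same strains at 20 °C. R11G10.3, on the opposite strand, shares 25.0% of the exon bases of ttr-44 and averaged 0.508 CPM. Its own difference between heated daf-16 and heated N2 was -1.46 (adjusted p = 0.260 by edgeR), and its heat effect in daf-16 was -1.56 (adjusted p = 0.0821), both in the direction of ttr-44 and neither called. ttr-48 had 67.2 and 69.8 CPM in heated pqm-1 worms, against 72.7 and 74.0 CPM in pqm-1 worms at 20 °C. In daf-16, ttr-48 had 46.6 and 51.5 CPM after heat, against 76.6 and 74.8 CPM at 20 °C, and in N2 it had 62.5 and 73.3 CPM after heat, against 75.6 and 76.7 CPM at 20 °C. Here too the heated daf-16 libraries were the lowest and did not overlap the rest. The difference from heated N2 was -0.47 ± 0.09 (adjusted p = 0.0269 by edgeR).

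The neighbours ttr-45 and ttr-51 have their levels in every library given above. ttr-45 was at 67.4 and 65.3 CPM in heated daf-16 and 96.3 and 96.5 CPM in heated N2, with no overlap. ttr-51 was at 138 and 135 CPM in heated daf-16 and 196 and 189.5 CPM in heated N2, again with no overlap. edgeR gave differences of -0.54 ± 0.08 (adjusted p = 0.00978) for ttr-45 and -0.50 ± 0.08 (adjusted p = 0.0138) for ttr-51. At 20 °C the same differences were -0.25 ± 0.08 and -0.31 ± 0.08, neither of them called. None of these 4 calls was kept in every fit that left out 1 library. ttr-44, ttr-45, ttr-48 and ttr-51 lost their calls without heated N2 replicate 3, and all but ttr-45 without heated daf-16 replicate 2. Each of these 2 fits leaves 1 library in a group, and fewer of all genes were called in them as well. Among heated libraries, N2 replicate 3 had the lowest levels of the heat shock markers and daf-16 replicate 2 the highest. The part of this spread in the calls was not tested. The fits without heated N2 replicate 2 or heated daf-16 replicate 3 also leave 1 library in a group. They kept these calls, and more of all genes were called in them. Over the 12 fits the difference was -1.12 to -0.68 for ttr-44 and -0.56 to -0.52 for ttr-45. It was -0.59 to -0.35 for ttr-48 and -0.53 to -0.48 for ttr-51. ttr-48 also lost its call without each of the 4 pqm-1 libraries in turn (adjusted p = 0.0503 to 0.0527). When the fit held only the heated daf-16 and N2 libraries, edgeR called 0 (adjusted p = 0.118 to 0.249), beside 0.180% of all genes. Without a filter on low counts 14 were called, 13 lower and 1 higher, a setting under which 5.29% of all genes were called. Of the 6 intestine markers, ges-1 was called lower in heated daf-16 than in heated N2, at -0.72 ± 0.11 (adjusted p = 0.0102). elt-2 and cpr-1 had -0.66 and -0.44, and vit-6, asp-1 and act-5 had 0.07, 0.13 and 0.27, none of these called. Their summed level, most of it vit-6 and asp-1, was 7746 to 9436 CPM in heated daf-16 and 7473 to 8732 CPM in heated N2. Summed hypodermis markers were at 3783 to 4037 CPM in heated daf-16 and 3443 to 3574 CPM in heated N2. The part of these markers in the 4 calls was not tested. The heat effects within daf-16 share the heated daf-16 libraries with this comparison. They were -0.92 ± 0.14 for ttr-44 and -0.62 ± 0.09 for ttr-48, both called lower and both called in every fit that left out 1 library.

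Heated daf-16 worms also had the lowest levels of ttr-46. The level of ttr-46 in pqm-1 was 142 and 142 CPM after heat, against 151 and 160.0 CPM at 20 °C, and in daf-16 it was 100.1 and 104 CPM after heat, against 142 and 156 CPM at 20 °C. In heated N2, ttr-46 was at 123 and 153 CPM, against 152 and 154 CPM in N2 at 20 °C. Both heated daf-16 libraries lay below the other 10. Within daf-16 edgeR gave -0.55 ± 0.10 (adjusted p = 0.00116) with heat, a call kept in every fit that left out 1 library, while pqm-1 and N2 gave -0.14 and -0.15, not called. Its difference between heated daf-16 and heated N2 was -0.44 ± 0.10 (adjusted p = 0.0572 by edgeR, 0.00772 by DESeq2). ttr-14 was also called lower with heat in daf-16, at -0.42, and not in N2, at 0.05, and its call was lost without 20 °C daf-16 replicate 3 or heated daf-16 replicate 3 (adjusted p = 0.0994 to 0.108). vap-2, which shares 6.36% of the exon bases of ttr-14 on the opposite strand, was itself called lower with heat in daf-16, at -0.84 (adjusted p = 0.0180 by edgeR). ttr-12 was called in daf-16 at -0.47 and had -0.40 in N2 (adjusted p = 0.0517 by edgeR), a difference of -0.07 ± 0.21 that was not called. Its daf-16 call was lost without either 20 °C daf-16 library or heated daf-16 replicate 3 (adjusted p = 0.0798 to 0.242), with DESeq2 (adjusted p = 0.0512) and with only the daf-16 libraries in the fit (adjusted p = 0.0786), and without a filter on low counts its N2 value was called too (adjusted p = 0.0228). The median difference of the family between daf-16 and N2 was -0.13 after heat and -0.11 at 20 °C, beside 0.01 and 0.00 for all genes. After heat it was -0.25 without heated daf-16 replicate 2 and -0.04 without heated daf-16 replicate 3, and at 20 °C it was -0.05 without daf-16 replicate 2 and -0.03 without N2 replicate 3.

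**Figure D5:**
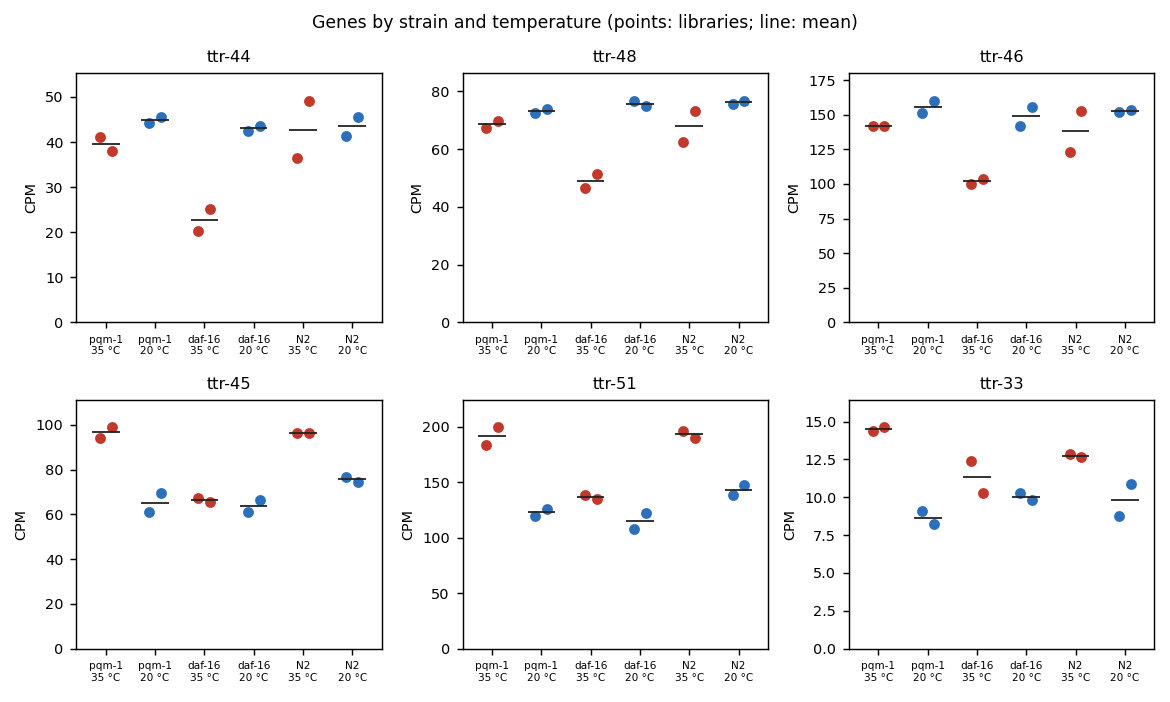
CPM of 6 genes by strain and temperature, with 1 panel a gene; points are the 2 libraries of each group and the short line is their mean, on axes that start at 0. In the ttr-44, ttr-48 and ttr-46 panels the heated daf-16 points are the lowest, at 20.2 and 25.2, 46.6 and 51.5 and 100.1 and 104 CPM.

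The difference in heat response between strains was tested directly. For pqm-1 minus N2, edgeR called 0 of 51 genes, with 3 (5.88%) at an unadjusted p under 0.05 beside 7.79% of all genes, and DESeq2 called 0. For daf-16 minus N2 it called 0 as well, with 12 (23.5%) at an unadjusted p under 0.05 beside 14.9% of all genes. DESeq2 called 1, ttr-44, beside 0.434% of all genes. Among all 14278 genes edgeR called 0% in both tests. The difference for ttr-44 was -0.90 ± 0.19 (adjusted p = 0.173 by edgeR and 0.00855 by DESeq2). ttr-48 had -0.46 ± 0.12, ttr-46 -0.40 ± 0.14 and ttr-9 -1.07 ± 0.30 in daf-16 minus N2, with adjusted p of 0.211, 0.246 and 0.214. In the other direction stood ttr-42, with 1.01 ± 0.24 in daf-16 minus N2 (adjusted p = 0.207) and 0.88 ± 0.24 in pqm-1 minus N2 (adjusted p = 0.572). A strain difference in the heat response of any of the 51 genes was thus not called by edgeR with 2 libraries a group.

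Genes of the engulfment pathway, in which TTR-52 works, were followed as the wider setting of the family. All 16 listed were tested: ced-1, ced-2, ced-5, ced-6, ced-7, ced-8, ced-10, ced-12, nrf-5, psr-1, tat-1, ina-1, pat-2, dyn-1, unc-73 and mig-2. After heat 3 were called higher and 0 lower in pqm-1, 6 higher and 0 lower in daf-16, and 5 higher and 1 lower in N2. Of all genes 12.5%, 16.5% and 16.8% were called higher in these strains, so 3 of 16 in pqm-1 is near that background. The median of the 16 was 0.03, 0.16 and 0.14 in these strains, beside 0.01, 0.03 and 0.02 for all genes. The receptor gene ced-1 was called higher in every strain, at 0.52 ± 0.11 in pqm-1, 0.78 ± 0.11 in daf-16 and 0.73 ± 0.11 in N2, as was mig-2, which encodes a Rac-like GTPase, at 0.60 ± 0.12, 0.71 ± 0.12 and 0.49 ± 0.12. psr-1, which encodes a phosphatidylserine receptor, stayed near 0 at 0.04, -0.01 and -0.02 and was not called. In none of the 4 strain comparisons was any of the 16 called.

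The worm also has transthyretin-like proteins of another kind, related to hydroxyisourate hydrolase, an enzyme of purine breakdown. R09H10.3, which encodes such a protein, fell after heat in all 3 strains by edgeR, with -0.39 ± 0.12 in pqm-1 (adjusted p = 0.0286), -0.79 ± 0.12 in daf-16 (adjusted p = 4.20e-04) and -0.53 ± 0.12 in N2 (adjusted p = 0.00467). xdh-1, which encodes xanthine dehydrogenase of the same pathway, was not called in any strain, at -0.11, -0.23 and 0.40. ZK697.8 had too few counts to be tested, and uox-1 was not analysed here.

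Of the 51 genes, 6 had more than 1 transcript row, and the one with the highest mean stood for the gene. For ttr-24 the second transcript row held 74.9 to 78.6% of the counts of the first, and for ttr-25 71.7 to 78.5%, over all 12 libraries. The second row of ttr-12 held 99.4 to 100%, and that of ttr-11, a gene of few counts, up to 108%. With the longest transcript in place of the highest, the same counts of calls were obtained for every comparison. No heat comparison called 16 of the 51 genes. Among them were the abundant ttr-41, at 239 CPM per kb, with log2 fold changes of 0.09 in pqm-1, -0.17 in daf-16 and -0.02 in N2, and ttr-3, at 36.0 CPM per kb, with -0.04, -0.01 and 0.11.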

How the data were processed

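Whole worms of 6 groups were measured by RNA sequencing. The authors deposited 1 table of estimated counts per transcript, not normalised, with columns named for the samples per the file headers. Of its non-zero values, 13.4% are not whole, so the counts were rounded. Aligner, counter, strand and genome build are not given in the sources used here. Transcript IDs were matched to RefSeq WBcel235: 45910 of 50755 rows matched, and the unmatched rows held 23.4 to 24.3% of the counts. No coordinates are printed, and no sequences or promoter motifs were examined. Each gene was represented by its row with the highest mean count over the libraries named replicate 2 and 3, and 5 libraries named replicate 1 entered only an alternative.

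Counts were tested in R 4.3.3 with edgeR 4.0.16 (filterByExpr, TMM factors, quasi-likelihood test on all 6 groups with 6 residual degrees of freedom, Benjamini-Hochberg adjustment over 14278 genes, called under 0.05), and the fit was tested on simulated data. Replicates differed by more than counting error: their chi-square per degree of freedom was 5.16 to 19.5. Same-numbered libraries of different groups did not deviate together, with correlations of -0.242 to 0.217 over 15 pairs of groups, so the numbers were not used as pairs. Alternatives were DESeq2 1.42.0, other scalings and filters, the longest transcript, all count columns, a replicate block, only the groups compared, and leaving out each library.

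Values in every library are given for the 3 genes with the largest rise and the 3 with the largest fall called in each heat comparison, genes called between strains, the 5 highest per kilobase, and ttr-11 and ttr-33. The members and lists were chosen with earlier results of these data known.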

Additional observations from a re-analysis of the deposited data

Results flagged for a closer look

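Libraries outside the comparisons did not follow their names in ttr-6, one of the genes that rose most. In CPM scaled over all 17 count columns, the heated libraries used held 107 to 138 CPM of ttr-6 and those at 20 °C held 52.6 to 59.8 CPM. ttr-6 was at 106 CPM in the library named N2 replicate 1 at 20 °C and 121 CPM in the library named pqm-1 replicate 1 at 20 °C. In the libraries named heated replicate 1 it was at 56.1 CPM in pqm-1, 58.4 CPM in daf-16 and 51.6 CPM in N2. The N2 and pqm-1 libraries named replicate 1 at 20 °C held 32.8 and 44.9 CPM of ttr-26, against 39.1 to 62.8 CPM in heated and 19.4 to 25.7 CPM in 20 °C libraries used. For ttr-30 they held 13.2 and 16.38 CPM, against 14.6 to 19.2 CPM in heated and 7.88 to 9.88 CPM in 20 °C libraries used. ttr-29, at 4.22 and 3.85 CPM, lay between the 4.24 to 6.80 CPM of the heated libraries and the 2.08 to 3.43 CPM of those at 20 °C. hsp-16.2 was at 207 and 324 CPM in these 2 libraries, and at 0.0387, 0.273 and 0.400 CPM in those named heated replicate 1 of pqm-1, daf-16 and N2. For hsp-16.2 and ttr-6, each of the 5 libraries named replicate 1 was thus nearer the other temperature than its own.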

How the results depend on the processing

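No log2 fold change of a called gene reversed under any alternative. The heat counts of 20 in pqm-1, 24 in daf-16 and 22 in N2 ranged over 13 to 21, 15 to 22 and 16 to 24 when 1 library was left out. In the fits without a library of the compared groups, fewer of all genes were called as well. With all count columns under their given names, edgeR called 0 genes in each heat comparison (5, 5 and 3 at an unadjusted p under 0.05). It also called 0 in both daf-16 comparisons with N2 (3 at 20 °C and 4 after heat at an unadjusted p). Of all genes, 0% were called in each of these comparisons. With only the groups compared in the fit, the heat counts were 29 in pqm-1, 13 in daf-16 and 16 in N2. Of all genes, 36.7%, 24.9% and 26.4% were called in these fits. Between heated daf-16 and heated N2 the count was 0, beside 0.180% of all genes. DESeq2 gave heat counts of 18, 18 and 19 in pqm-1, daf-16 and N2, beside 20.9%, 27.3% and 28.5% of all genes. It lost ttr-9 and ttr-56 in pqm-1, ttr-2, ttr-12, ttr-20, ttr-31, ttr-51 and ttr-59 in daf-16, and ttr-13, ttr-33 and ttr-56 in N2. It called 1 gene between pqm-1 and N2 at 20 °C, beside 0.714% of all genes. In the daf-16 minus N2 heat response it called 1, beside 0.434% of all genes. Without a filter on low counts, calls were 3 between pqm-1 and N2 at 20 °C, beside 2.63% of all genes. There were 3 between daf-16 and N2 at 20 °C, beside 6.30%, and 14 between heated daf-16 and heated N2, beside 5.29%. In the heat response differences of pqm-1 and daf-16 there were 2 and 6, beside 1.36% and 3.80%. Scaling by total counts alone gave 7 between heated daf-16 and heated N2, beside 1.66% of all genes. Leaving out 1 library moved the family median over -0.17 to -0.03 between daf-16 and N2 at 20 °C and over -0.25 to -0.04 after heat. For the daf-16 minus N2 heat response it moved over -0.18 to -0.02. The counts called in these 3 comparisons moved as well, and so did the share of all genes called. The block by replicate number gave heat counts of 18 in pqm-1, 23 in daf-16 and 23 in N2, beside 24.9%, 32.8% and 34.3% of all genes. Between heated daf-16 and heated N2 it gave 5, beside 1.32% of all genes. The causes were not tested. Genes under about 1 CPM, such as ttr-58, rest on few counts.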
